A study of Mus musculus with 8 samples.

Results

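The genes described here mark the lymphocyte lineages: 14 genes of T cells, 10 of natural killer (NK) and other cytotoxic cells and 10 of B and plasma cells, 34 in all. They were chosen by name, and for each the brightest probe set that names it alone was read on the log2 scale. Of the 34 genes, 33 were measured in this way, among 21160 genes in the whole table. The probe set of Lck, a kinase that starts T cell receptor signalling, also names a microRNA gene and was not used here.

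T cells recognise peptides through an antigen receptor that signals through the CD3 chains, B cells bind antigen through surface immunoglobulin that signals through CD79, and NK cells kill without a rearranged receptor, by releasing granzymes and perforin. The liver holds many NK, T and innate lymphoid cells in its sinusoids, close to the endothelium. Nearly all of these cells carry CD45 on their surface, and plasma cells lose part of it.

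The samples are Affymetrix arrays of liver endothelial cells from bone marrow chimeric mice. Wild-type C57BL/6N mice, 8 weeks old, were irradiated with 9 Gy in 2 doses of 4.5 Gy and received 5000 YFP-labelled LSK cells, a marrow fraction rich in blood-forming stem cells. At 1 month, CD45-negative, CD31-positive, CD146-positive liver cells were sorted into YFP+ cells, which the labels call marrow-derived, and YFP- cells, which they call resident. Both groups come from irradiated and transplanted animals. The YFP- gate can hold any unlabelled recipient cell that passes it, and the promoter that drives YFP is not given in the sources used here. Each group has 4 arrays, which the labels call biological replicates, and their number limits the precision.

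All 13 measured endothelial marker genes were above the array background on all 8 arrays, and the log2 mean of the list was 11.34 to 11.43 on the YFP- arrays and 10.86 to 11.13 on the YFP+ arrays. All 13 of these genes had negative differences, as had 10505 of the 21160 genes. Of the 13, 8 were lower in YFP+ cells without overlap, against 3.82% of all genes. At an adjusted p under 0.05 from limma, 1 (Tek) was called lower, against 0.336% of all genes. Background was set for each array at the 95th percentile of its negative control entries, 8.98 to 9.10 log2 in the YFP- group and 8.73 to 9.03 in the YFP+ group. The medians of these controls, 6.90 to 6.99 in the YFP- group and 6.69 to 6.82 in the YFP+ group, did not overlap. The array of YFP+ replicate 3 stands apart: it had the highest median of the background probes, 87.5 intensity units against 76.0 to 81.5 on the other arrays. It also had 14.6% of genes above background, against 18.1% to 19.0% on the other YFP+ arrays. Differences that leaving it out moved past the threshold, and that of Sdc1, are given with and without it.

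No lymphoid lineage as a whole stood above background. None of the 33 genes differed between YFP+ and YFP- cells at an adjusted p under 0.05 (limma with Benjamini-Hochberg adjustment over all genes), against 1.61% of all genes (1.27% called higher and 0.336% called lower). At an unadjusted p under 0.05 there were 13, or 39.4%, all of them higher in YFP+ cells, against 13.5% of all genes. Positive differences were found for 24 of the 33 genes, or 72.7%, against 50.4% of all genes, and 6 genes (18.2%) were higher in YFP+ cells with no overlap between groups, against 4.8%. None was lower without overlap, against 3.82% of all genes. The median log2 difference was 0.21 for T, 0.27 for NK and 0.18 for B cell genes, and 0.0019 over all genes. With single arrays left out the medians ran from 0.16 to 0.25, from 0.18 to 0.30 and from 0.099 to 0.25, the last being lowest without YFP- replicate 3. The lowest adjusted p from limma was 0.0773 in the T, 0.143 in the NK and 0.281 in the B cell genes.

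Most of the 33 genes gave no signal above background on any array. That was so for 11 of 13 T, 8 of 10 NK and 8 of 10 B cell genes. The 6 others, or 18.2% against 24.3% of all genes, were above it on at least 1 array. These were Il7r, Lat, Nkg7 and Gzmb on YFP+ replicate 2 alone, Ebf1 on 3 arrays of each group, and Sdc1 on all 4 YFP+ arrays and no YFP- array. Sdc1 was thus the 1 gene above background on every YFP+ array, where 11.7% of all genes were, and no lymphocyte gene was so on every YFP- array, against 11.1%. The split of Sdc1 rests in part on lower limits on YFP+ arrays. Measured against the median of the negative controls, 17 of the 33 genes (51.5%) were above it on every YFP+ array, against 60.3% of all genes. In a bulk sample of sorted cells, fewer cells of a type and less RNA per cell cannot be told apart.

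**Figure D1:**
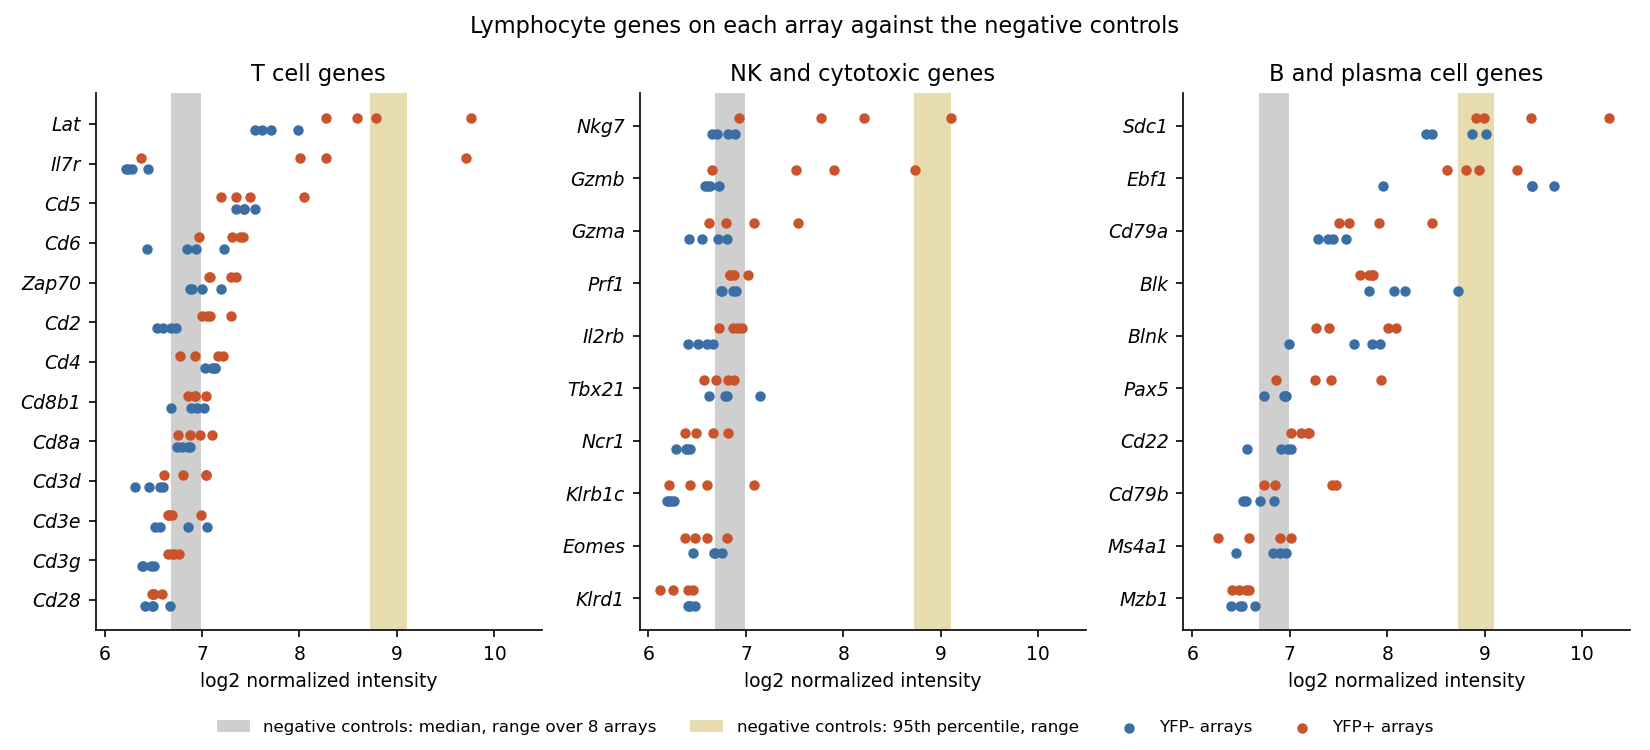
Log2 normalized intensity (horizontal axis) of the 33 measured lymphocyte genes on each of the 4 YFP- and 4 YFP+ arrays, 1 point an array, by lineage. The grey band spans the medians and the yellow band the 95th percentiles of the negative controls over the 8 arrays. Most genes lie near the grey band in both groups. Lat, Il7r, Nkg7 and Gzmb pass the 95th percentile of their array on YFP+ replicate 2 only. Sdc1 passes it on all 4 YFP+ arrays and Ebf1 on 3 arrays of each group.

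The chains of the T cell receptor complex stayed near the negative controls. Cd3e, which encodes the epsilon chain, had log2 intensities of 6.52, 6.85, 7.05 and 6.57 on YFP- replicates 1 to 4 and of 6.65, 6.66, 6.69 and 6.99 on YFP+ replicates 1 to 4. The groups overlapped fully, with means of 6.75 ± 0.25 and 6.75 ± 0.16 (SD, n = 4; limma adjusted p = 0.999). Cd3d, which encodes the delta chain, stood at 6.60, 6.31, 6.57 and 6.46 on the YFP- and at 7.04, 6.61, 6.81 and 7.04 on the YFP+ arrays. Its lowest YFP+ value lay just above its highest YFP- value, and the log2 difference of 0.39 (SE 0.13) missed the threshold (limma adjusted p = 0.217). Cd3g, which encodes the gamma chain, stood at 6.51, 6.40, 6.47 and 6.38 on the YFP- and at 6.69, 6.77, 6.71 and 6.65 on the YFP+ arrays. The values were tight and did not overlap, but the log2 difference was only 0.26 (SE 0.10; adjusted p = 0.270 from limma). No chain reached the 95th percentile of the controls on any array.

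The co-receptors that sort T cells into helper and cytotoxic classes showed no difference that passed the test. Cd4, the helper co-receptor, which some macrophages also carry, stood at 7.03, 7.10, 7.13 and 7.13 on the YFP- and at 7.22, 7.17, 6.78 and 6.92 on the YFP+ arrays. Its difference of -0.08 was the lowest among the T cell genes (limma adjusted p = 0.869). Cd8a and Cd8b1, the 2 chains of the cytotoxic co-receptor, had log2 differences of 0.11 and 0.05 (SE 0.11 and 0.12). Their values lay between 6.68 and 7.10 over all 8 arrays.

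Among the adhesion and costimulatory receptors, Cd2 had the clearest separation. Cd2 encodes a receptor of T and NK cells for CD48, and it stood at 6.73, 6.60, 6.68 and 6.54 on the YFP- and at 7.29, 7.09, 7.0 and 7.05 on the YFP+ arrays. All 4 YFP+ values lay above all 4 YFP- values, with a log2 difference of 0.47 (SE 0.11), which is 1.38-fold (limma adjusted p = 0.0800). It passed with array weights (adjusted p = 0.0393). Cd6, a receptor that restrains T cell signals, had a difference of 0.41 (SE 0.18), and its groups overlapped. Cd5, a related receptor of T cells and some B cells, had a difference of 0.09 and its highest value, 8.05, on YFP+ replicate 3. Cd28, the costimulatory receptor for CD80 and CD86, stayed between 6.41 and 6.67 on all 8 arrays, with means of 6.52 in both groups.

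The T cell genes with sizeable differences were a signalling adaptor and a cytokine receptor. Zap70, the kinase that binds the phosphorylated CD3 chains, had a log2 difference of 0.21 (SE 0.12). Lat encodes the membrane adaptor that Zap70 phosphorylates, which NK cells, mast cells and platelets also use. It stood at 7.62, 7.70, 7.54 and 7.99 on the YFP- and at 8.79, 9.76, 8.28 and 8.59 on the YFP+ arrays. All YFP+ values lay above all YFP- values, and the log2 difference was 1.14 (SE 0.27), or 2.21-fold (limma adjusted p = 0.0773). Il7r encodes the receptor chain for interleukin-7, used by naive T cells, lymphoid progenitors and innate lymphoid cells. It stood at 6.23, 6.24, 6.44 and 6.28 on the YFP- and at 8.01, 9.71, 6.38 and 8.27 on the YFP+ arrays. Of the YFP+ arrays 3 were far above the YFP- values and replicate 3 lay within them, so that the difference of 1.79 (SE 0.53), the highest of the 33 genes at 3.47-fold, missed the threshold (limma adjusted p = 0.150).

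The surface receptors of NK cells were close to the controls. Klrb1c, which encodes the NK1.1 antigen, stood at 6.19, 6.21, 6.23 and 6.27 on the YFP- and at 7.08, 6.42, 6.60 and 6.21 on the YFP+ arrays. YFP+ replicate 1 was the highest and replicate 4 lay within the YFP- values, and the difference of 0.35, or 0.18 without replicate 1, missed the threshold (limma adjusted p = 0.425). Ncr1, which encodes the NKp46 receptor, had a difference of 0.21 (SE 0.12). Klrd1, which encodes the CD94 partner of NKG2 receptors, stood at 6.47, 6.42, 6.42 and 6.41 on the YFP- and at 6.45, 6.41, 6.26 and 6.12 on the YFP+ arrays. Its difference of -0.12 was the lowest among the NK genes (limma adjusted p = 0.735). Il2rb, a chain shared by the interleukin-2 and interleukin-15 receptors, stood at 6.66, 6.51, 6.41 and 6.60 on the YFP- and at 6.96, 6.72, 6.87 and 6.92 on the YFP+ arrays. These groups did not overlap, with a difference of 0.32 (SE 0.11, limma adjusted p = 0.218).

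The genes of cytotoxic granules did not move as a set. Nkg7 encodes a granule membrane protein that takes part in granule release. It stood at 6.89, 6.70, 6.82 and 6.65 on the YFP- and at 8.21, 9.10, 6.93 and 7.77 on the YFP+ arrays. The groups did not overlap, although YFP+ replicate 3 barely cleared the YFP- values, and the log2 difference was 1.24 (SE 0.36), or 2.36-fold (limma adjusted p = 0.143). Gzmb encodes granzyme B, a serine protease that triggers death of target cells and is also made by mast cells. It stood at 6.63, 6.60, 6.72 and 6.58 on the YFP- and at 7.91, 8.74, 6.66 and 7.51 on the YFP+ arrays. YFP+ replicate 3 again lay within the YFP- values, with a difference of 1.07 (SE 0.35), or 2.10-fold (limma adjusted p = 0.184). Gzma, which encodes granzyme A, stood at 6.80, 6.72, 6.42 and 6.55 on the YFP- and at 7.53, 7.08, 6.79 and 6.62 on the YFP+ arrays. Here YFP+ replicate 1 was the highest, and the difference was 0.38 (SE 0.19, limma adjusted p = 0.436), or 0.21 without that array. Prf1, which encodes the pore-forming perforin, had means of 6.82 ± 0.08 and 6.89 ± 0.09 (SD, n = 4). The transcription factor genes of the NK program, Eomes and Tbx21, had differences of -0.08 and -0.10 (limma adjusted p = 0.874 and 0.844).

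**Figure D2:**
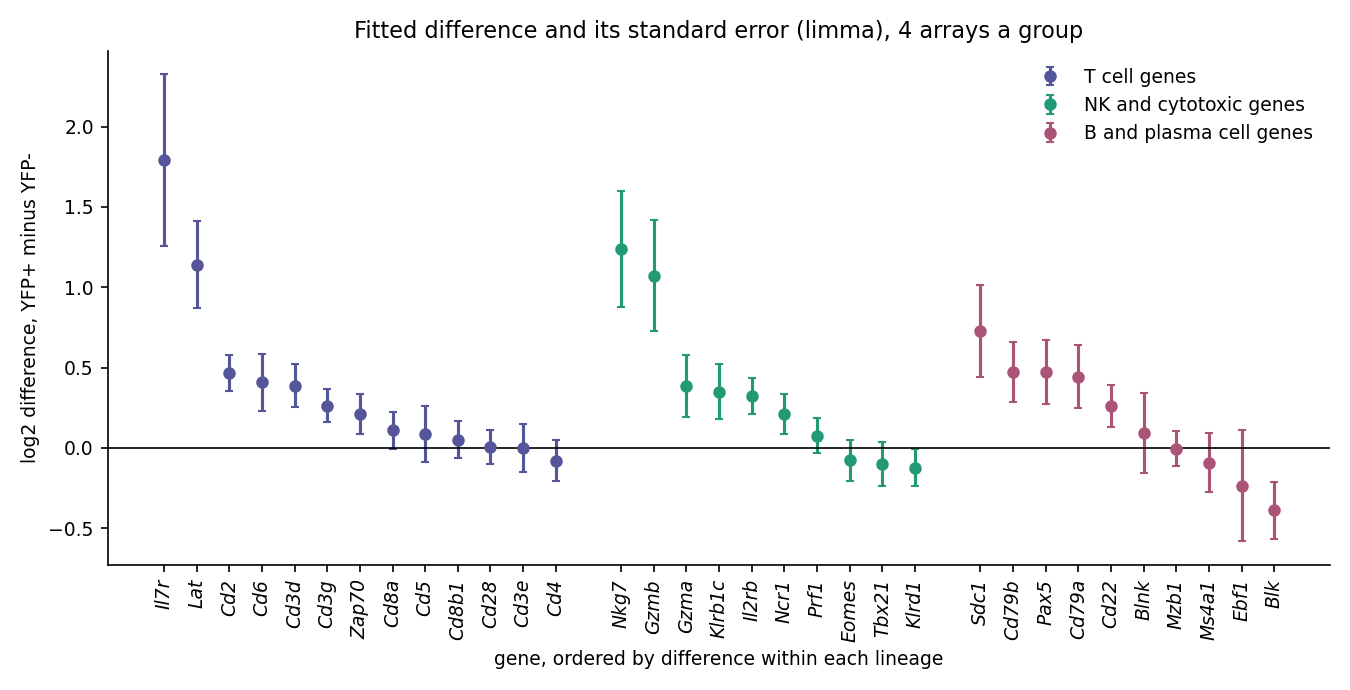
Log2 difference of YFP+ minus YFP- (vertical axis) for each of the 33 lymphocyte genes, ordered within each lineage; points are limma estimates and bars their standard errors, with 4 arrays a group. Il7r, Lat, Nkg7 and Gzmb lie above 1 and the others between -0.39 and 0.73.

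Il7r, Lat, Nkg7 and Gzmb thus had the 4 largest differences, and their YFP+ arrays had nearly the same order. All 4 genes were highest on YFP+ replicate 2 and lowest on replicate 3. That was not theirs alone. Cd6, Cd8a, Zap70, Eomes and Ncr1, with smaller differences, had the same highest and lowest YFP+ arrays. Without YFP+ replicate 3 all 4 passed the test, and no other lymphocyte gene did, where 2.37% of all genes were called higher. The folds were then 5.15 for Il7r, 3.02 for Nkg7, 2.68 for Gzmb and 2.52 for Lat (limma adjusted p = 0.00682, 0.0124, 0.0143 and 0.0249). Replicate 3 was the lowest YFP+ array of all 4 genes, so leaving it out could only raise their differences. These calls are therefore no separate support for the 4 genes. With array weights the same 4 genes and Cd2 passed (5 genes, against 2.45% of all genes called higher). In the authors' deposited table, which takes the ratio of linear means, their folds were 4.72 for Il7r, 2.72 for Nkg7, 2.40 for Gzmb and 2.37 for Lat, with unadjusted p-values of 0.122, 0.0864, 0.0928 and 0.0604. The authors' deposited table gives an unadjusted p under 0.05 for 5 others of the 33 genes, Cd3d, Cd3g, Cd2, Il2rb and Cd22, all with folds under 1.5.

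Several marker lists of other cells had the same highest and lowest YFP+ arrays as these 4 genes. Of 14 pan-leukocyte genes, 12 were above background on at least 1 array and 6 were called higher. Over all genes these shares were 24.3% and 1.27%. The mean of the pan-leukocyte list was 7.28 to 7.55 log2 on the YFP- arrays and 8.83, 10.01, 8.43 and 9.11 on YFP+ replicates 1 to 4, the same order of YFP+ arrays as for Il7r. Of 9 basophil and mast cell genes, all were above background on at least 1 array and 4 were called higher. Kit went the other way, lower in YFP+ cells without overlap (log2 difference -0.52, limma adjusted p = 0.171). Kit was above background on all 8 arrays, and Hdc and Gata2 were so on some YFP- arrays. The mean of this list was 7.67 to 7.85 on the YFP- and 9.60, 10.78, 8.54 and 9.25 on the YFP+ arrays, the same order as for Lat, Nkg7 and Gzmb. The part of such cells in the values of Il7r, Lat, Nkg7 and Gzmb was not tested. The platelet mean varied less over the YFP+ arrays (9.01, 8.93, 8.82 and 8.79). The monocyte and neutrophil mean (7.93, 8.22, 7.88 and 7.93) was also highest on replicate 2 and lowest on replicate 3. So were the hepatocyte mean (8.32, 8.75, 8.00 and 8.61) and the share of all genes above background (18.1%, 19.0%, 14.6% and 18.1%). The order is thus not particular to blood cell genes.

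**Figure D3:**
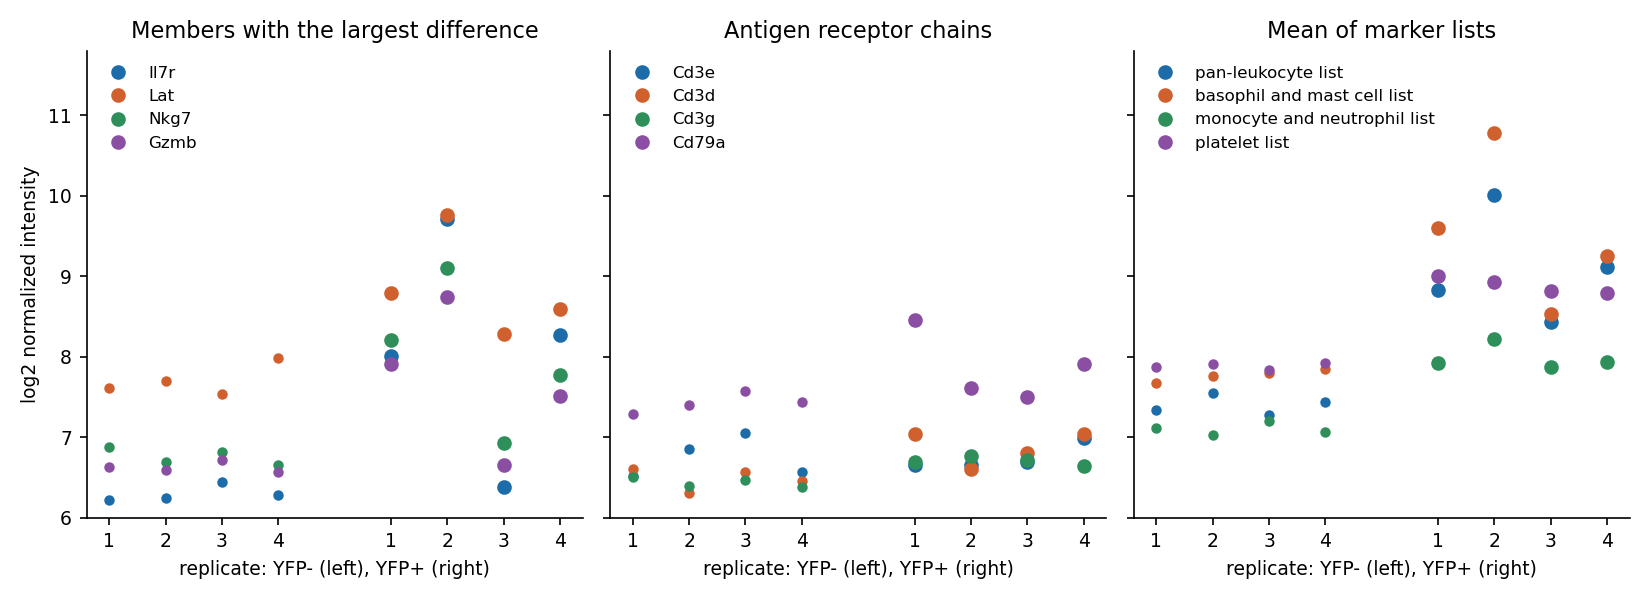
Log2 normalized intensity (vertical axis) on each array, YFP- replicates 1 to 4 on the left and YFP+ replicates 1 to 4 on the right of each panel, 1 point an array. The members with the largest difference are highest on YFP+ replicate 2 and lowest on replicate 3, as are the pan-leukocyte and basophil and mast cell list means, whereas the CD3 chains and Cd79a do not follow that order.

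The promoters of these 4 genes are shown because the genes had the largest differences and their values moved together over the YFP+ arrays. The windows run from 250 bases before to 50 bases after the annotated start, 5′ to 3′ in the direction of the gene, and come from RefSeq on build GRCm38.p6. Capitals mark the 6-letter core of the RUNX family of blood transcription factors, TGTGGT, or its reverse complement ACCACA.
Il7r (chr15:9529827-9530126, minus strand): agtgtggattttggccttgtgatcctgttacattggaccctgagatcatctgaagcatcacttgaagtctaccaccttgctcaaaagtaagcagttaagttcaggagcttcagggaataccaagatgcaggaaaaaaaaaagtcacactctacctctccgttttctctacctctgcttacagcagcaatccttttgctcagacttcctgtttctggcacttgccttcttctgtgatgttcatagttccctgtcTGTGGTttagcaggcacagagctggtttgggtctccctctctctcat
Lat (chr7:126369519-126369818, minus strand): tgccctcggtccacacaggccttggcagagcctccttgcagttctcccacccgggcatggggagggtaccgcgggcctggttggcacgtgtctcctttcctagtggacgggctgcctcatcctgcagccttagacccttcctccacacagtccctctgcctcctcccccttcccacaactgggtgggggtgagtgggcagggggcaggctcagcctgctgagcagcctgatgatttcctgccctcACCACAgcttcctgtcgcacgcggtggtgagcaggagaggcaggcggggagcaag
Nkg7 (chr7:43436888-43437187, plus strand): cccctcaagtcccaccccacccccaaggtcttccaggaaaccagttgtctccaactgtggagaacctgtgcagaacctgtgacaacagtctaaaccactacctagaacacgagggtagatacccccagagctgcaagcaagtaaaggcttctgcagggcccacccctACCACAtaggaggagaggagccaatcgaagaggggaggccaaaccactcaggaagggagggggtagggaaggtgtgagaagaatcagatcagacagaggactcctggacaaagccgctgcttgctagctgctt
Gzmb (chr14:56262285-56262584, minus strand): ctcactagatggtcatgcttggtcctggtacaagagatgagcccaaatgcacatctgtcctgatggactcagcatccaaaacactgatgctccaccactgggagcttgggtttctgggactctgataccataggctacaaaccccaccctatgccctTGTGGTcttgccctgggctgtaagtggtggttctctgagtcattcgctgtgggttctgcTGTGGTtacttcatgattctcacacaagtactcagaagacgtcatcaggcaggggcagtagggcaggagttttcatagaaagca

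Each of the 4 windows holds the RUNX core, Gzmb 2 times and the others 1 time. Windows were found for 23 of the 34 genes, 28 windows in all, and 12 of the 28 (42.9%) hold it, against 16.8% of 32851 promoter windows of the same length. The PU.1 core GAGGAA was in 15 of the 28 (53.6%) against 28.3%, but of the 4 windows shown only in that of Lat. The GATA core AGATAA was in 1 of the 28 (3.57%) against 11.2%, and in none of the 4. Both strands were searched, no matches of the 3 cores overlapped in the 4 windows, and the cores were picked after the values were seen. A match describes these letters and is not a binding site.

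The signalling chains of the B cell receptor were somewhat higher on some YFP+ arrays and failed the test. Cd79a, which encodes the Ig-alpha chain, had values of 7.29 to 7.58 on the YFP- and of 8.46, 7.61, 7.50 and 7.91 on the YFP+ arrays. Replicate 1 was the highest and replicate 3 lay within the YFP- values, with a difference of 0.44 (SE 0.20, limma adjusted p = 0.358) that was 0.25 without replicate 1. Cd79b, which encodes the Ig-beta chain, stood at 6.69, 6.52, 6.83 and 6.55 on the YFP- and at 7.48, 6.84, 7.43 and 6.73 on the YFP+ arrays. The groups overlapped, with a difference of 0.47 (SE 0.19, limma adjusted p = 0.285). Ms4a1, which encodes the CD20 antigen, and Cd22, an inhibitory lectin of B cells, had differences of -0.09 and 0.26. Cd22 passed after the median of the negative controls was subtracted (limma adjusted p = 0.0322). In that fit, values under a set floor were raised to it, which held for Cd22 on all YFP- arrays. The medians subtracted were also lower on every YFP+ array than on every YFP- array. That call therefore cannot tell a difference in Cd22 from an effect of the floor and the unequal medians.

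B cell signalling and transcription factor genes were divided. Pax5, the factor that commits cells to the B lineage, stood at 6.73, 6.94, 6.96 and 6.95 on the YFP- and at 7.93, 7.43, 6.86 and 7.25 on the YFP+ arrays. It was highest on YFP+ replicate 1, like Cd79a and Cd79b, and the difference was 0.47 (SE 0.20, limma adjusted p = 0.334), or 0.28 without that array. Ebf1, an early B cell factor that stromal and fat cells also use, stood at 9.49, 9.48, 9.71 and 7.96 on the YFP- and at 9.33, 8.81, 8.61 and 8.94 on the YFP+ arrays. It was above background on 3 YFP- and 3 YFP+ arrays, and the groups overlapped (difference -0.24, SE 0.35, limma adjusted p = 0.854). Blnk, the adaptor below the B cell receptor, had a difference of 0.09. Blk, a Src-family kinase of B cells, stood at 7.82, 8.06, 8.72 and 8.18 on the YFP- and at 7.84, 7.81, 7.85 and 7.71 on the YFP+ arrays. Its difference of -0.39 (SE 0.18) was the lowest of all 33 genes, and the groups overlapped (limma adjusted p = 0.376).

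The plasma cell genes went apart. Mzb1, which encodes a chaperone of antibody secretion, stayed between 6.39 and 6.64 on all arrays. Sdc1 encodes syndecan-1, a proteoglycan of plasma cells that hepatocytes and bile duct cells also carry. It stood at 8.46, 9.01, 8.86 and 8.40 on the YFP- and at 9.47, 8.91, 10.28 and 8.99 on the YFP+ arrays. It was below background on all YFP- arrays and above it on all YFP+ arrays, but the groups overlapped and the difference of 0.73 (SE 0.28), or 1.66-fold, missed the threshold (limma adjusted p = 0.281). The split rests in part on the limits. YFP- replicate 2, at 9.01, lay under its limit of 9.10. YFP+ replicates 2 and 4, at the lower values of 8.91 and 8.99, lay over limits of 8.73 and 8.80. Without YFP+ replicate 3, its highest array, the difference was 0.44, or 1.36-fold (limma adjusted p = 0.306). All 9 bile duct marker genes had positive differences, against 50.4% of all genes, and 5 were called higher, against 1.27%. Their mean was 7.73 to 8.09 on the YFP- and 9.11, 8.55, 8.88 and 9.02 on the YFP+ arrays, lowest among the latter on replicate 2, as was Sdc1. All 10 hepatocyte marker genes had positive differences too and 3 were called higher. Their mean was 7.58 to 7.94 on the YFP- and 8.32, 8.75, 8.00 and 8.61 on the YFP+ arrays, highest on replicate 2 and lowest on replicate 3, where Sdc1 was lowest and highest. The part of either cell type in the value of Sdc1 was not tested.

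Further NK and B cell genes outside the 34 gave much the same picture, with 3 exceptions. Of 18 other NK genes, 2 were called higher, Cd7, a surface protein of T and NK cells, at 9.89-fold and Cd244a, a receptor of the SLAM family, at 4.99-fold (limma adjusted p = 0.0450 and 0.0360). Of 17 other B cell genes, 1 was called higher, Btk, a kinase of B, myeloid and mast cells, at 2.18-fold (limma adjusted p = 0.0411). Cd7 and Cd244a were above background on 3 YFP+ arrays each and on no YFP- array. None of the 17 B cell genes, Btk included, was above background on any array, whereas 24.3% of all genes were on at least 1. No gene was called among 6 of B cell progenitors or 9 of innate lymphoid cells, where 1.27% of all genes were called higher and 0.336% lower. The list medians were 0.09, 0.23, -0.0094 and 0.08 in that order.

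The 3 exceptions followed the same order of arrays at both ends. On YFP+ replicates 1 to 4, Cd7 stood at 10.09, 11.40, 7.32 and 10.42, and Cd244a at 9.14, 10.64, 7.94 and 9.12. Btk stood at 7.58, 8.00, 6.73 and 7.40. Each was highest on replicate 2 and lowest on replicate 3, as were the pan-leukocyte and the basophil and mast cell means, whose part in these values was not tested. Their calls depended on the arrays and the processing: over 15 alternative fits Cd244a was called in 9, Cd7 in 5 and Btk in 4. Each of the 3 calls was lost when any single YFP- array, or YFP+ replicate 1 or 4, was left out, and those of Cd7 and Btk also without YFP+ replicate 2. The calls of Cd7 and Btk were lost as well with quantile normalization (limma adjusted p = 0.0547 and 0.0642), with cyclic loess normalization (0.0528 and 0.0639) and with the negative control median subtracted (0.114 and 0.334). The limma adjusted p ranged from 0.00335 to 0.106 for Cd244a, from 0.00011 to 0.134 for Cd7 and from 0.00191 to 0.334 for Btk.

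Among 20 genes of antigen receptor signalling that several blood lineages share, 1 was called higher and the median difference was 0.27. This was Fyb, an adaptor of T cells, myeloid cells and platelets, at 7.61-fold (limma adjusted p = 0.0017). It stood at 6.32, 6.38, 6.30 and 6.08 on the YFP- and at 8.90, 10.21, 8.64 and 9.04 on the YFP+ arrays, with the order of YFP+ arrays seen for the pan-leukocyte mean, and was called in all 15 alternative fits.

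**Figure D4:**
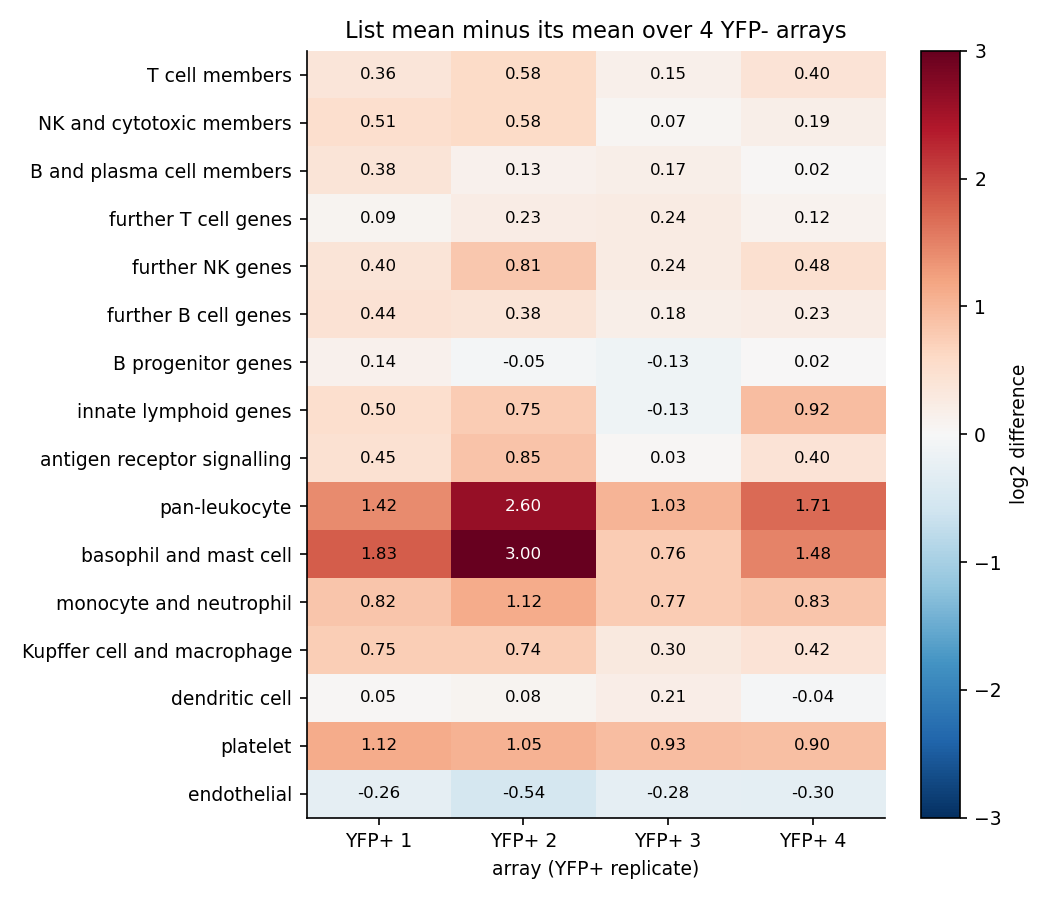
Mean of each gene list on each YFP+ array minus the mean of the same list over the 4 YFP- arrays (log2, shown by colour), for lymphoid lists in the upper rows and other cell types below. T, NK and B cell members differ by 0.02 to 0.58, against 1.03 to 2.60 for the pan-leukocyte list and 0.76 to 3.00 for the basophil and mast cell list.

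Over all lymphocyte genes the shift on single YFP+ arrays was small beside that of the pan-leukocyte and the basophil and mast cell lists. Relative to the YFP- mean, T cell members were higher by 0.36, 0.58, 0.15 and 0.40 on YFP+ replicates 1 to 4, NK members by 0.51, 0.58, 0.07 and 0.19, and B cell members by 0.38, 0.13, 0.17 and 0.02. T and NK members were thus highest on replicate 2, and B cell members on replicate 1. Without Il7r, Lat, Nkg7 and Gzmb, chosen after their values were seen, the median difference of the other 29 genes was 0.11.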

How the data were processed

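The 8 Affymetrix arrays, 4 a group, were hybridised with biotin-labelled RNA amplified from 100 pg of total RNA, per the labels' protocols. The deposited tables hold normalized intensities on a linear scale. The normalization method and the array model: not given in the sources used here. Per the file headers, 1 deposited table adds group means, a fold and a p-value of an unnamed test; the fold equals the ratio of linear means. Groups came from the sample titles. No source says that replicates of equal number share a mouse, so arrays were left unpaired in the main fit. The deviations of same-numbered arrays correlated at 0.16, 0.02, 0.10 and 0.08, against -0.13 to 0.067 for arrays of different number. Each YFP- array correlated most with the YFP+ array of its own number. These values do not settle whether the arrays are paired, and the replicate block was run as an alternative. The labels call the replicates biological, but name no animals, so a p-value here reflects the spread among the deposited arrays.

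Intensities were log2 transformed here. Of 22206 probe sets of genes, 21373 had 1 symbol, which gave 21160 genes, with the brightest probe set for 131 genes that had several; each of the 33 lymphocyte genes had 1. Entrez numbers updated symbols through the GRCm38.p6 RefSeq table. The fit used limma 3.58.1 in R 4.3.3 (lmFit, eBayes, two-sided, no dim filter), and was tested on simulated data. Folds of dim genes are likely understated, since no background subtraction is stated. Per-array values are shown for genes with non-overlapping groups, the 3 highest and the lowest difference of each lineage, and genes above background on every array of a group; Cd3e, Klrb1c, Cd79a and Ebf1 were added after values were seen. Alternatives were the replicate block, quantile and cyclic loess normalization, no dim genes, probe set means, trended and robust eBayes, array weights, subtraction of the negative control median (floor 16 units) and leaving out each array. The genes and lists were chosen with earlier results of these data known. Tables and plots used Python 3.11.15, numpy 2.4.6, pandas 2.3.3 and matplotlib 3.10.9. Some results are not reported here.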

Additional observations from a re-analysis of the deposited data

Results flagged for a closer look

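Of 66 groups of 4 arrays (33 genes, 2 groups each), 4 held an array far from the other 3, where chance gives about 1 in 20 groups. Ebf1 stood at 7.96 log2 on YFP- replicate 4 and at 9.48 to 9.71 on the other YFP- arrays. Without that array the difference of Ebf1 was -0.64 instead of -0.24 and again missed the threshold (limma adjusted p = 0.205). Pax5 stood at 6.73 on YFP- replicate 1, against 6.94 to 6.96 on the others. Cd3e stood at 6.99 on YFP+ replicate 4, against 6.65 to 6.69. Cd28 stood at 6.59 on YFP+ replicate 2, against 6.49 to 6.50. Of the 4 genes, only Ebf1 was above background on any array.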

How the results depend on the processing

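The count of lymphocyte genes called was 0 in 12 of 16 alternatives, with the replicate block among them (0 genes called; medians of 0.21, 0.27 and 0.18 for T, NK and B cell genes, as without it). Under the block Btk was no longer called (limma adjusted p = 0.0565), while Cd7, Cd244a and Fyb were. Array weights gave 5 (Cd2, Lat, Il7r, Nkg7 and Gzmb), subtraction of the negative control median 1 (Cd22), and leaving out each array 0 to 4, with 4 without YFP+ replicate 3 (Il7r, Lat, Nkg7 and Gzmb) and 1 without YFP+ replicate 2 (Lat). Subtraction of the negative control median moved the T cell median to 0.43, the B cell median to 0.73 and the NK median to 0.052. The medians subtracted were lower on every YFP+ array (103 to 113 intensity units) than on every YFP- array (119 to 127). Values under the floor were set to it, as were those of Cd22 on all YFP- arrays. Sdc1 and Ebf1 were the 2 genes left without dim genes, so no T or NK median exists there. The number above background on every YFP+ array, 1 as reported, was 17 with the median of the negative controls as the limit, 0 with their 99th percentile, and 1 to 2 with each array left out (2 without YFP+ replicate 3). No alternative turned the sign of 24 genes, of which 5 (Cd3g, Il2rb, Ncr1, Klrd1 and Eomes) came to 0 with the negative control median subtracted, since all their arrays lay at the floor. The 9 that changed sign had log2 differences of at most 0.0992 in size. With single arrays left out, the differences ran from -0.082 to 0.099 for Cd3e, -0.14 to 0.0025 for Cd4, -0.016 to 0.098 for Cd8b1, -0.088 to 0.20 for Cd5, -0.030 to 0.054 for Cd28, -0.17 to 0.0017 for Tbx21, -0.20 to 0.051 for Ms4a1, -0.042 to 0.041 for Mzb1 and -0.11 to 0.23 for Blnk. Array weights gave 0.075 for Cd3e, -0.0069 for Cd5 and -0.00068 for Cd28, quantile and cyclic loess normalization both gave -0.029 for Cd28, and subtraction of the negative control median gave 0.43 for Cd4 and 0.10 for Ms4a1. The unequal medians given above enter the subtracted differences directly, and the cause of the other moves was not tested. For 27 of the 33 genes, which lay within the negative controls on every array, signal over background limits any statement on their level.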

Other observations

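Receptors for the alarm cytokines interleukin-18 and interleukin-33, which NK cells, innate lymphoid cells, mast cells and basophils use, had large differences that did not pass the test. Il18r1 had a log2 difference of 2.32 (SE 0.56, limma adjusted p = 0.0796) and its partner chain Il18rap of 1.55 (limma adjusted p = 0.198). Both were higher in YFP+ cells without overlap between the groups, as were 4.8% of all genes. Il1rl1, the interleukin-33 receptor gene, had a difference of 2.31 (limma adjusted p = 0.115), and its groups overlapped. Il18r1 was above background on 2 YFP+ arrays, Il18rap on 1 and Il1rl1 on 3, and none of them on a YFP- array. Il18r1 and Il1rl1 had the highest differences of the 9 innate lymphoid genes. The median of these 9 was 0.08, with 5 positive and 4 negative differences. On YFP+ replicates 1 to 4, Il18r1 stood at 7.94, 9.95, 6.57 and 8.90 log2, highest on replicate 2 and lowest on replicate 3 like Il7r.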
